A study of Homo sapiens with 12 samples.

Results

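Ribosome biogenesis and nucleolar factors were followed here as 42 named genes among the 19305 coding sequences counted in the series, and all 42 were found by symbol. They comprise the box C/D small nucleolar ribonucleoprotein (snoRNP) core (3 genes), the box H/ACA snoRNP core (4), nucleolar phosphoproteins and chaperones (4), the PeBoW complex (3), other large-subunit assembly factors (8), the UTP-A complex (5), other parts of the small-subunit processome (9), late small-subunit factors (3), and RNA polymerase I subunits with an rDNA-linked helicase (3). The rule names the genes and sets no threshold on a measured value, but the list was drawn up with earlier results of these data known. Every member passed the filter on low counts in every comparison.

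The series is ribosome profiling, in which fragments of mRNA protected by ribosomes are sequenced and counted per coding sequence. It holds 12 libraries in 6 groups of 2, numbered set 1 and set 2. The 8 HEK293T libraries come from a transformed human embryonic kidney line. All are labelled as treated with sodium arsenite, a stressor that activates the integrated stress response. They carry eIF2A siRNA or control siRNA, and CBP80 or eIF4E as immunoprecipitation (IP) target, so no untreated or input HEK293T library was analysed here. The 4 H9 libraries come from a human embryonic stem cell line and carry eIF2A shRNA or control shRNA, with no arsenite and no IP in their labels. eIF2A is a translation initiation factor that can deliver initiator tRNA, CBP80, the product of NCBP1, belongs to the cap-binding complex that mRNA carries out of the nucleus, and eIF4E binds the cap in the cytoplasm. Nothing in the labels says that the sets were grown separately. The p-values therefore rest on differences between sets that could be technical. A footprint count follows both mRNA level and translation, and no mRNA-seq was used here.

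Ribosomes are built mainly in the nucleolus. RNA polymerase I transcribes the ribosomal RNA precursor, the UTP-A complex and the U3 snoRNP join it to form the small-subunit processome, and snoRNPs modify it, box C/D particles by methylation and box H/ACA particles by pseudouridylation. The PeBoW complex of PES1, BOP1 and WDR12 then acts in maturation of the large-subunit ribosomal RNA. Many genes of this pathway are known targets of MYC, which with MAX binds the E-box CACGTG.

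The E-box was searched in RefSeq promoter windows of build GRCh38.p14, from 250 bases before to 50 bases after each start site. CACGTG reads the same on both strands, so both were covered, and it overlaps no other motif searched. Of 37 members with a window, 19 held it (51.4%), against 1727 of 15843 protein-coding genes with a window (10.9%) and 1312 of 10086 genes tested between the cell lines (13%). NOP58, NOLC1, BOP1, RRS1 and RRP12 had no window. Of 21 matches in member windows, 14 (66.7%) began within 20 bases of the start site, against 308 of 2077 matches (14.8%) in all protein-coding windows. The following 30-base stretches are shown because the results on these members are described below, with capitals for the motif.
WDR43, chr2:28894658-28894687, plus strand: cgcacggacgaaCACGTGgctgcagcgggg
RRP9, chr3:51941892-51941921, minus strand: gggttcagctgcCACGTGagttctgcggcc
PES1, chr22:30591880-30591909, minus strand: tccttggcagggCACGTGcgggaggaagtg
FBL, chr19:39846356-39846385, minus strand: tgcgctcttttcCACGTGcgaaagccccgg
GAR1, chr4:109815781-109815810, plus strand: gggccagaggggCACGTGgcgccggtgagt
NOC3L, chr10:94362903-94362932, minus strand: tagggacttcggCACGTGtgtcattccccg
NOP10, chr15:34343130-34343159, minus strand: gaaattgacgaaCACGTGacgcggtcgggc
LYAR, chr4:4290068-4290097, minus strand: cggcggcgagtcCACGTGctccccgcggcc
WDR43 was the member that rose with eIF2A siRNA, RRP9, PES1 and FBL were higher in H9 than in HEK293T, GAR1, NOC3L and NOP10 were lower, and LYAR differed most between the H9 sets. With the first transcribed base counted as 1, the match began at base 4 in WDR43, base 14 in PES1 and base 7 in FBL, and 5 bases before that first base in RRP9. A match is a stretch of letters and was not tested as a binding site.

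Each H9 library held 937990 to 1878700 coding reads and each HEK293T library 4331459 to 5775177. Libraries of the same siRNA label and set but different IP target differed by little more than counting noise, at a chi-square per degree of freedom between 1.01 and 1.03, against 2.75 to 5.52 for the same group in different sets. They were therefore summed and counted once in the siRNA comparison. The shallower H9 libraries of one set also lay close across shRNA labels, at 1.04 in set 1 and 1.07 in set 2. By the chi-square test these pairs still differed by more than counting noise (p = 0.00209 in set 1 and 5.88e-07 in set 2). EIF2A itself had 93.8 and 98.4 CPM (reads per 1000000 coding reads) in the HEK293T libraries labelled eIF2A siRNA of set 1 and 45.3 and 48 in those of set 2, against 82.7 and 83.8 (set 1) and 81.3 and 86.1 (set 2) with control siRNA. In H9 it had 110.2 CPM (set 1) and 68.2 CPM (set 2) in the libraries labelled eIF2A shRNA, against 103.4 and 60.9 with control shRNA. EIF2A footprints were thus lower in the set 2 eIF2A siRNA libraries and not in those of set 1 or in H9, so the knockdown names below are those of the labels. Pluripotency markers summed to 5251 to 5539 CPM in H9 and 98.3 to 116.3 CPM in HEK293T, with the POU5F1 row at 0 in all 12 libraries. By counting error alone a 0 allows up to 3.2 CPM in the shallowest. Reads placed in several loci were left out of these counts, so the POU5F1 row does not bound its footprints. The 7 HEK293T markers summed to at most 5.33 CPM in H9 and 101 to 138 CPM in HEK293T.

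The eIF2A siRNA comparison asks how footprints on these genes differ with the eIF2A knockdown label in arsenite-treated HEK293T cells. One UTP-A member, WDR43, rose, while BOP1 of the PeBoW complex and NOP16, a large-subunit assembly factor, fell. The other 39 of 42 did not pass the test. Among all 12331 genes tested, 6.15% were higher and 6.29% lower, so 1 member higher and 2 lower are not above that background. The members' median log2 fold change was -0.07, against 0.00 for all genes. The test was edgeR's quasi-likelihood test with Benjamini-Hochberg adjustment over all genes, at a threshold of 0.05.

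WDR43, a UTP-A subunit that binds the early ribosomal RNA precursor, had 285.2 and 282.3 CPM (set 1, CBP80 and eIF4E label) and 228 and 234.3 CPM (set 2) with eIF2A siRNA, against 189.7 and 180.6 CPM (set 1) and 143.7 and 134.8 CPM (set 2) with control siRNA. All 4 eIF2A siRNA libraries lay above all 4 control libraries, though libraries sharing siRNA label and set count once. The fitted log2 fold change was 0.57 ± 0.14 (SE, edgeR adjusted p = 0.00288), and within the sets the CPM ratio was 1.53 (95% interval 1.45 to 1.62, counting error only) in set 1 and 1.66 (1.55 to 1.77) in set 2. Such intervals often missed 1. Of the 42 members, 14 lay above 1 and 10 below in set 1, and 16 above and 13 below in set 2. The share among all genes was not counted, and their median ratio was 1.09 in set 1 and 1.04 in set 2. WDR43 was also lower in set 2 than in set 1 under either siRNA label.

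BOP1, the PeBoW scaffold, had 72.2 and 73.1 CPM (set 1) and 61.2 and 62.5 CPM (set 2) with eIF2A siRNA, against 92.7 and 87.8 CPM (set 1) and 100.6 and 95.1 CPM (set 2) with control siRNA. The groups did not overlap. Its log2 fold change was -0.58 ± 0.14 (SE, edgeR adjusted p = 0.00213), and the CPM ratio was 0.805 in set 1 (interval 0.73 to 0.886) and 0.631 in set 2 (0.571 to 0.697). The other PeBoW subunits did not pass the test. PES1 had 106, 110.8, 101.2 and 97 CPM with eIF2A siRNA, against 96.8, 103.7, 102 and 100.7 CPM with control siRNA (log2 fold change -0.05). WDR12 had 250.9, 229.2, 253 and 264.8 CPM with eIF2A siRNA, against 265.1, 276.4, 270.6 and 272 CPM with control siRNA (log2 fold change -0.20).

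NOP16 had 98.3 and 99 CPM (set 1) and 106.3 and 104.8 CPM (set 2) with eIF2A siRNA, against 124.2 and 110.5 CPM (set 1) and 134.8 and 138.1 CPM (set 2) with control siRNA. The groups did not overlap, though the nearest libraries, 106.3 and 110.5 CPM, lay close. Lack of overlap was not particular to the called members. GNL2, which did not pass, had 391.2 to 417.1 CPM with eIF2A siRNA, against 304.5 to 348.2 CPM with control siRNA. The share of all genes without overlap between the siRNA labels was not counted. The log2 fold change of NOP16 was -0.40 ± 0.14 (SE, edgeR adjusted p = 0.0386).

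**Figure D1:**
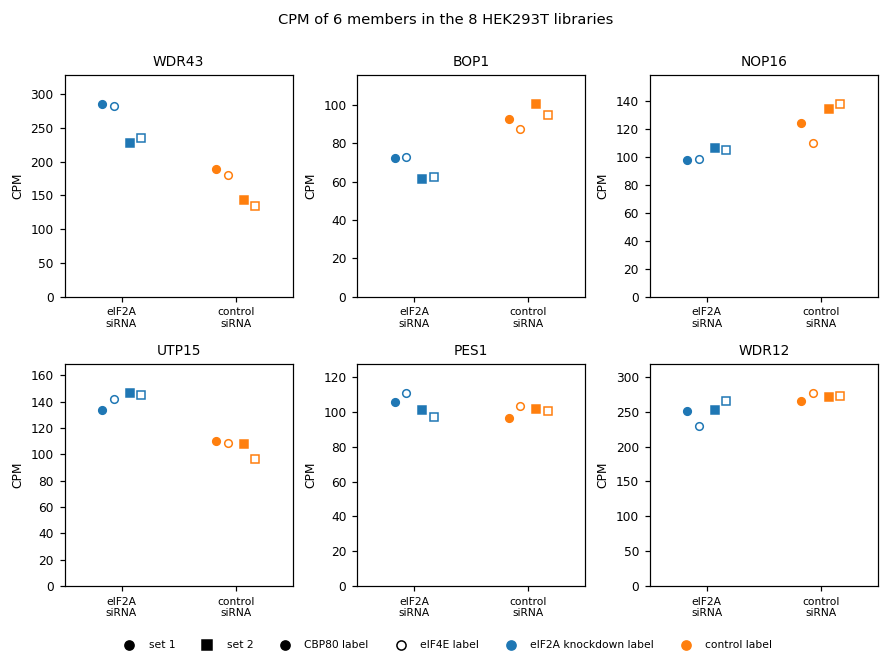
CPM of 6 members in the 8 HEK293T libraries, eIF2A siRNA left and control siRNA right, with circles for set 1, squares for set 2, filled symbols for the CBP80 label and open ones for the eIF4E label. WDR43 and UTP15 are higher in all 4 eIF2A siRNA libraries than in any control library. BOP1, NOP16 and, by a small margin, WDR12 are lower, while PES1 overlaps. UTP15, WDR12 and PES1 did not pass the test.

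In the UTP-A complex the 5 members did not move one way. UTP15 missed the threshold, at 133.8, 142.2, 146.2 and 144.6 CPM with eIF2A siRNA, against 110.1, 108.4, 107.6 and 96.7 CPM with control siRNA (log2 fold change 0.33 ± 0.13 SE, edgeR adjusted p = 0.0883). NOL11 had a log2 fold change of 0.28, WDR75 of -0.14 and UTP4 of -0.31 (edgeR adjusted p = 0.118 for UTP4), and none of these passed. Among the 9 other processome members none passed. NOL6, the human counterpart of a yeast processome protein, came nearest at -0.34 ± 0.13 (SE, edgeR adjusted p = 0.0834), and the other log2 fold changes ran up to 0.25, in RRP9.

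The snoRNP cores showed small differences, none past the threshold. In the box C/D core, the methyltransferase FBL had a log2 fold change of -0.09 and its scaffold partners NOP56 and NOP58 of -0.07 and -0.06. FBL had 349.6, 331.8, 356.7 and 365.9 CPM with eIF2A siRNA, against 329.9, 330.3, 384 and 366.2 CPM with control siRNA, and the groups overlapped. In the box H/ACA core, the pseudouridine synthase DKC1 had -0.17, NHP2 -0.14, GAR1 -0.18 and NOP10 0.12. NCL, or nucleolin, was the most abundant member by footprint count, at 8545 to 9127 CPM with eIF2A siRNA and 7998 to 8105 CPM with control siRNA, groups that did not overlap in CPM (fitted log2 fold change 0.05). NPM1, the nucleolar chaperone nucleophosmin, had a log2 fold change of -0.19, POLR1A of -0.08 and POLR1B of 0.01. MYC had 382 to 434.3 CPM with eIF2A siRNA and 390.4 to 413 CPM with control siRNA.

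The 3 calls did not all hold when a library was left out, though the fold changes of these 3 members kept their direction. Leaving out set 2 of control siRNA left no member called (BOP1 -0.50, NOP16 -0.27, WDR43 0.40), and leaving out set 1 of eIF2A siRNA left BOP1 alone (NOP16 -0.31, WDR43 0.47). Leaving out set 1 of control siRNA lost NOP16 at a larger fold change of -0.52, and so did DESeq2 at -0.40, while leaving out set 2 of eIF2A siRNA, where EIF2A was low, added UTP4. With library sizes alone the median of all genes was 0.09 and that of the members 0.02, and UTP15 passed in place of NOP16. Of the reads with a single placement, those falling outside coding sequences made up 51 and 51.1% (set 1) and 42.2 and 42.4% (set 2) with eIF2A siRNA, against 39.9 and 40.1% (set 1) and 35.2 and 35.3% (set 2) with control siRNA. Its part in these differences was not tested.

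The same contrast in H9 asks whether footprints differ with the eIF2A shRNA label in stem cells without arsenite in their labels. Libraries of one set lay close across shRNA labels. EIF2A levels followed the set and not the shRNA label, so EIF2A footprints do not show a knockdown in H9. Whether the set and shRNA labels match the libraries was not tested, and the values below, and those between the sets, depend on the labels as given. No member passed the test, and no gene did among 9751 tested with edgeR (background 0%), where 84 genes had an unadjusted p under 0.05, none of them a member. DESeq2 called no gene either. The members' log2 fold changes ran from -0.26 to 0.18 with a median of 0.02, against 0.00 for all genes. RRS1, which in yeast helps recruit the 5S ribonucleoprotein, was lowest, at 99.5 and 74.6 CPM with eIF2A shRNA (set 1, set 2), against 110.3 and 101.2 CPM with control shRNA. WDR43 had 253.9 and 175.9 CPM with eIF2A shRNA, against 239 and 191.2 CPM with control shRNA (log2 fold change 0.02 ± 0.19 SE). BOP1 had 133.6 and 132.2 CPM with eIF2A shRNA, against 121.7 and 119.8 CPM with control shRNA (0.14 ± 0.15 SE), so all 3 PeBoW genes had positive values (0.10 to 0.14) that did not pass. NOP16 had 116 and 103.4 CPM with eIF2A shRNA, against 117.3 and 97.9 CPM with control shRNA.

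The difference between the siRNA and shRNA label effects was tested by an interaction term, and no member and no gene of 12911 passed (edgeR, background 0%), with 1059 genes, 2 members among them, at an unadjusted p under 0.05. DESeq2 called no gene. BOP1 had the smallest p among the members, with a difference of -0.70 ± 0.22 (SE, edgeR adjusted p = 0.427), and WDR43 a difference of 0.57. This result depends on the model. With the set number as block, edgeR called 571 genes, among them BOP1 (-0.70 ± 0.16 SE, adjusted p = 0.00151) and WDR43 (0.59 ± 0.14 SE, adjusted p = 0.00198). Differences between set 1 and set 2 correlated across knockdown labels at 0.525 in HEK293T and 0.549 in H9. The labels do not say that set numbers pair the libraries. The block also leaves fewer residual degrees of freedom than the main fit. In H9 the spread it leaves is that between libraries of one set, which lay close, so its SEs leave out the spread between sets.

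**Figure D2:**
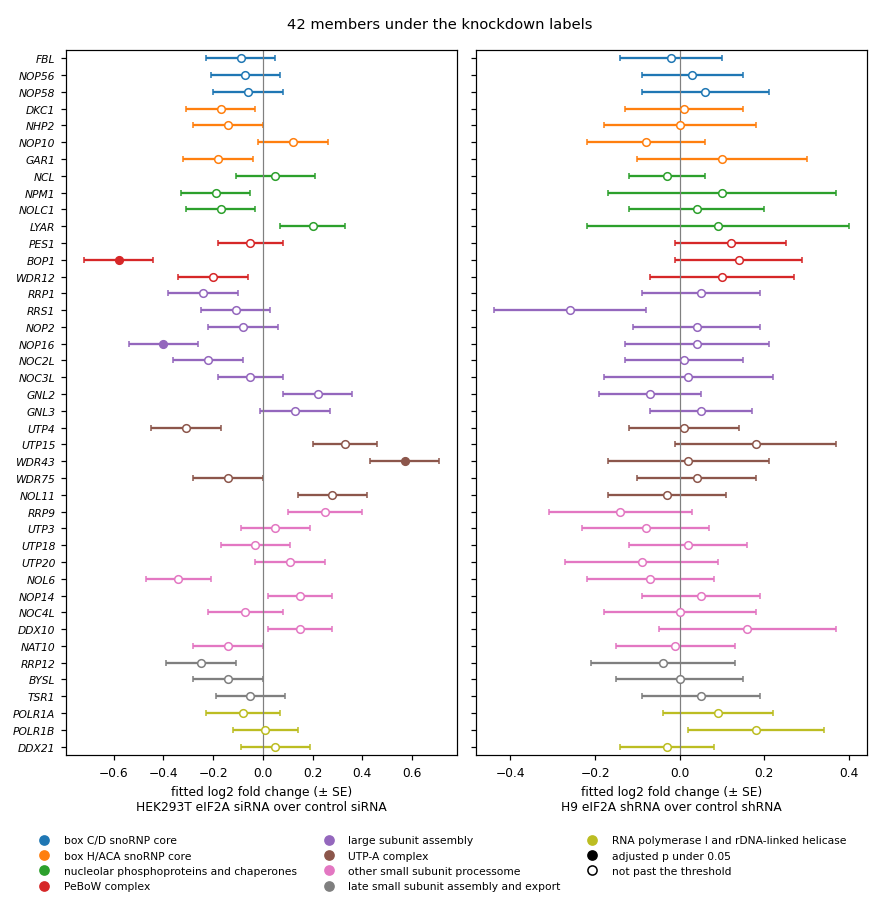
Fitted log2 fold change with SE of the 42 members, ordered by role, for HEK293T eIF2A siRNA over control siRNA (left) and H9 eIF2A shRNA over control shRNA (right), with filled points past the threshold. WDR43 lies at 0.57, NOP16 at -0.40 and BOP1 at -0.58 on the left, and no point is filled on the right, where values span -0.26 to 0.18.

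CBP80 and eIF4E labels were compared to ask whether the cap-bound fraction changes footprints on these genes. Since libraries of the same siRNA label and set differ by little more than counting noise, it cannot be told whether they are separate IPs or repeat runs of one library, and in the second case the comparison says nothing of the cap-bound fraction. No member passed the test, and their log2 fold changes ran only from -0.06 to 0.04. Among 11569 genes edgeR called 1 (0.00864%), HSF5, lower with CBP80, with 112 genes, none of them a member, at an unadjusted p under 0.05. DESeq2 called no member. Deviations from the mean of each IP label correlated at 0.687 to 0.892 over the 4 pairs sharing siRNA label and set. These deviations still hold the differences between siRNA labels and between sets. With the pairing as a block 6 genes of 11778 passed (0.0509%), none a member. The smallest unadjusted p in that fit was that of BYSL, a late small-subunit factor, at -0.06 ± 0.03 (SE, edgeR adjusted p = 0.945). With the 4 pairs summed, member ratios of CBP80 over eIF4E lay between 0.961 and 1.04, and for BYSL, at 290.8 against 302.8 CPM, the interval was 0.927 to 0.995.

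H9 and HEK293T control libraries differ in cell line, arsenite, IP and siRNA or shRNA, which cannot be told apart, so the following are differences between these libraries. In bulk libraries, fewer cells with a transcript and fewer footprints per cell cannot be told apart either. Most members were lower in H9. With edgeR, 26 of 42 were lower and 5 higher, against 37.3 and 34.5% of the 12307 genes tested, and the members' median log2 fold change was -0.61, against -0.07 for all genes. Across all 12 libraries, 25 members lay below every HEK293T library in every H9 library, 8 lay above and 9 overlapped, against 32.3% below and 34.4% above among all genes tested. Summed over members, footprints took 1.25 to 1.27% of coding reads in H9 and 2.04 to 2.19% in HEK293T, or 8713 to 9028 CPM in H9 and 12358 to 12936 CPM in HEK293T without NCL.

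The box H/ACA core was lower in H9 in all 4 subunits. GAR1 had 55.9 and 48 CPM with eIF2A shRNA and 52 and 45.7 CPM with control shRNA in H9, against 125.1 to 151.3 CPM in HEK293T (control over control log2 fold change -1.70 ± 0.18 SE, edgeR adjusted p = 3.82e-20). NOP10 had 163.9 to 186.6 CPM in H9, against 382.5 to 517.2 CPM in HEK293T (-1.40), NHP2 77.7 to 97 CPM in H9, against 126.5 to 165.2 CPM in HEK293T (-0.95), and DKC1 227.3 to 275.1 CPM in H9, against 319.6 to 374.7 CPM in HEK293T (-0.67). No H9 library reached the lowest HEK293T library for any of these subunits. The box C/D core split. NOP56 had 371.9 to 395.5 CPM in H9, against 764.4 to 856.5 CPM in HEK293T (-1.25), and NOP58 238.9 to 308.7 CPM in H9, against 568.7 to 619 CPM in HEK293T (-1.27). FBL, their enzyme partner, had 547.2, 477.6, 537 and 500.9 CPM in H9, against 329.9 to 384 CPM in HEK293T, with every H9 library higher (0.40 ± 0.14 SE, edgeR adjusted p = 0.00756). Without set 1 of HEK293T control, FBL had 0.28 and did not pass.

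PeBoW also split. PES1 had 221.4 and 218.6 CPM with eIF2A shRNA and 203.5 and 201.2 CPM with control shRNA in H9, against 97 to 110.8 CPM in HEK293T (0.85 ± 0.15 SE, edgeR adjusted p = 8.8e-08). WDR12 had 113.4, 129, 121.7 and 102.6 CPM in H9, against 229.2 to 276.4 CPM in HEK293T (-1.43 ± 0.16 SE, edgeR adjusted p = 1.05e-18). BOP1 did not pass, at 0.20. PES1 and WDR12 thus lay on opposite sides of HEK293T, each without overlap.

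Among the nucleolar phosphoproteins, NPM1 had 133.6 and 210 CPM with eIF2A shRNA and 120.5 and 195.2 CPM with control shRNA in H9, against 510.4 to 655.4 CPM in HEK293T (-2.04 ± 0.15 SE, edgeR adjusted p = 3.92e-39). RefSeq lists 50 pseudogenes named for NPM1, and reads placed in several loci were left out of these counts, so its level is uncertain in both lines. NCL had 3622 to 3790 CPM in H9, against 7998 to 9127 CPM in HEK293T (-1.25), and LYAR was lower (-0.73). NOLC1, a snoRNP chaperone, did not pass, at 524.1 to 692.5 CPM in H9 and 559.5 to 637.8 CPM in HEK293T.

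Large-subunit assembly factors were lower in 5 of 8 cases. NOC3L had 53.8, 68.2, 57.1 and 60.9 CPM in H9, against 165.8 to 189.7 CPM in HEK293T (-1.75 ± 0.17 SE, edgeR adjusted p = 7.37e-23). NOP2, a methyltransferase of the large-subunit ribosomal RNA, was lower (-1.38), as was RRP1 (-1.07), while NOP16 (-0.40) and the GTPase nucleostemin GNL3 (-0.34) lay nearer the threshold. NOC2L, RRS1 and GNL2 did not pass. In the UTP-A complex NOL11 (-1.49), UTP15 (-0.83) and WDR75 (-0.80) were lower. NOL11 had 246.4, 266.5, 240.9 and 279.9 CPM in H9, against 634 to 898.3 CPM in HEK293T. UTP4 and WDR43 did not pass.

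The processome held the largest rise and a spread of falls. RRP9, the U3 snoRNP-specific protein, had 110.2 and 90.6 CPM with eIF2A shRNA and 110.3 and 113.8 CPM with control shRNA in H9, against 23.6 to 35.8 CPM in HEK293T (1.96 ± 0.18 SE, edgeR adjusted p = 7.41e-27). NOC4L, a small-subunit assembly factor, had 83.6, 77.8, 74.8 and 87.4 CPM in H9, against 25.2 to 36.7 CPM in HEK293T (1.27 ± 0.18 SE, edgeR adjusted p = 1.63e-11). The RNA helicase DDX10 (-1.31), the RNA acetyltransferase NAT10 (-0.85), UTP18 (-0.65), NOL6 (-0.57) and UTP3 (-0.41) were lower. UTP20 and NOP14 did not pass. Of the late small-subunit factors TSR1 was higher (0.80), with 333.5 to 412.1 CPM in H9 and 171 to 224.2 CPM in HEK293T, and BYSL (-1.16) and RRP12 (-0.56) were lower.

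POLR1A, the catalytic subunit of RNA polymerase I, had the lowest fold change of the members. It had 265.6 and 296.4 CPM with eIF2A shRNA and 275.8 and 252.1 CPM with control shRNA in H9, against 1106 to 1265 CPM in HEK293T (-2.32 ± 0.15 SE, edgeR adjusted p = 2.48e-54). Its partner POLR1B did not pass, at -0.19, nor did the helicase DDX21, at 0.26. Levels of the subunits were not compared with each other, since coding lengths were not used here.

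**Figure D3:**
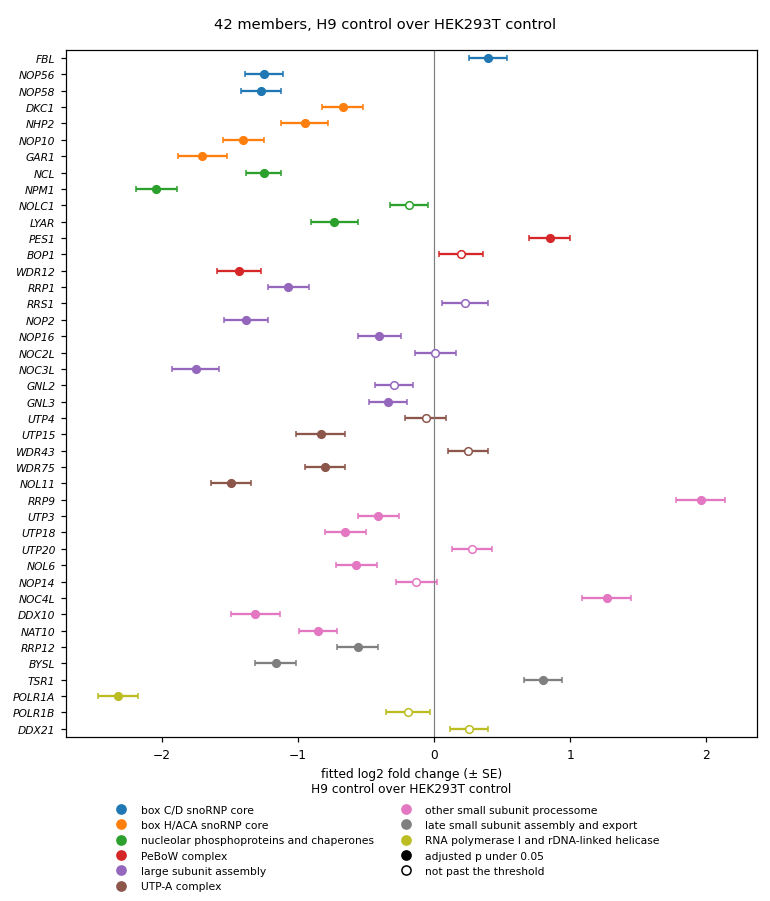
Fitted log2 fold change with SE of the 42 members, H9 control over HEK293T control, ordered and coloured by role, with filled points past the threshold. The points run from -2.32 for POLR1A to 1.96 for RRP9, 26 filled points lie left of 0 and 5 right of it.

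**Figure D4:**
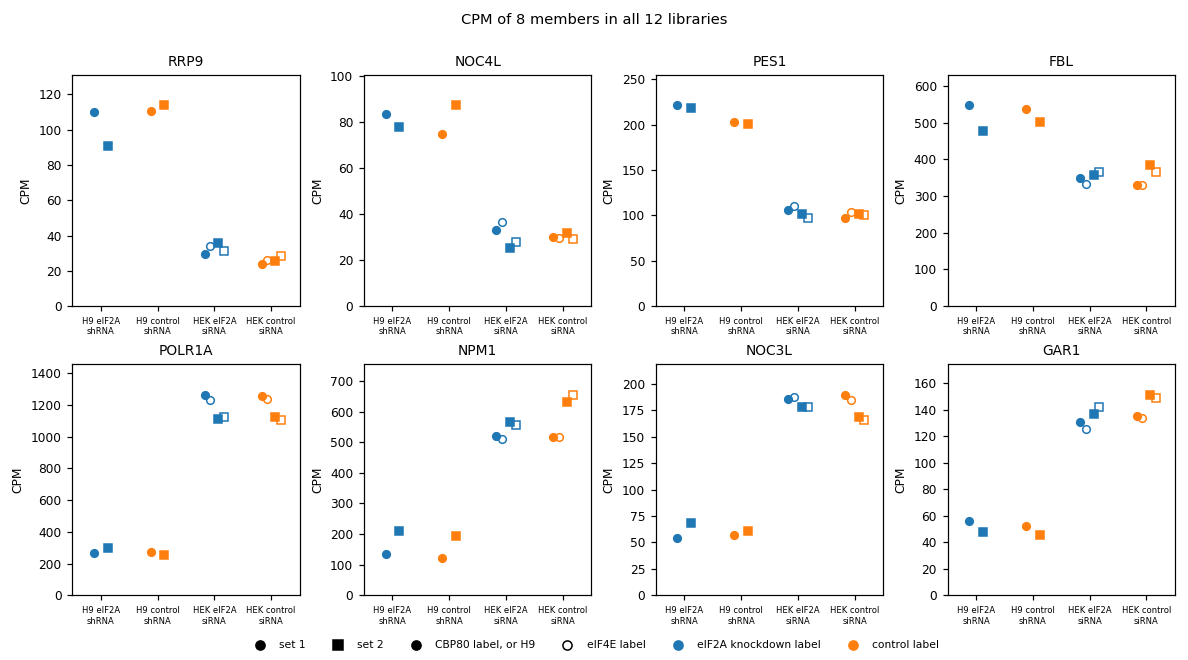
CPM of 8 members in all 12 libraries, H9 groups left of HEK293T groups, circles for set 1 and squares for set 2. RRP9, NOC4L, PES1 and FBL are higher in all 4 H9 libraries than in any HEK293T library, POLR1A, NPM1, NOC3L and GAR1 lower, and NPM1 differs between the H9 sets.

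MYC had 93.8 to 140.1 CPM in H9 and 382 to 434.3 CPM in HEK293T (-1.77 ± 0.16 SE, edgeR adjusted p = 6.62e-29). The E-box was in the windows of 3 of 5 members higher in H9, 10 of 24 lower and 6 of 8 not past the threshold, against 13% of all genes higher and 12.7% of all genes lower. Of the 31 calls, GNL3, NOP16 and UTP3 were the least stable. They passed in 6, 8 and 9 of 13 alternatives and were lost, among others, with library sizes alone (GNL3 -0.19, NOP16 -0.24, UTP3 -0.25). Leaving out set 1 of H9 control lost GNL3, UTP3 and RRP12 (-0.31), and leaving out set 2 of H9 control lost GNL3 and NOP16. Leaving out set 1 of HEK293T control lost GNL3 besides FBL, and leaving out set 2 of it lost GNL3, NOP16 and UTP3. LYAR passed in all 13 alternatives, at -1.11 without set 1 of H9 control and -0.40 without set 2. With library sizes alone, 10 members were higher and 23 lower (all-gene median 0.09), and keeping genes whose mean count reached 50 also gave 10 and 23.

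The H9 sets also differed in some members, whichever shRNA label they carried. With both labels summed, NPM1 had 200.9 CPM in set 2 and 127.6 CPM in set 1 (ratio 1.57, 95% interval 1.38 to 1.79), and UTP20 305.8 CPM in set 2 and 235.8 CPM in set 1 (1.3, 1.17 to 1.43). LYAR had 61.2 CPM in set 2 and 110 CPM in set 1 (0.557, 0.458 to 0.675), and WDR43 and NOLC1 also had ratios below 1, at 0.75 and 0.775. The intervals cover counting error only and this is a description without a test. Over the members, 7 intervals lay above 1, 8 below and 27 spanned it, against 12.6% above and 15.3% below among 9065 genes with at least 50 reads. In the deeper HEK293T control libraries, set 2 over set 1 gave 11 members above 1 and 15 below, against 12.6% above and 18.8% below among 10966 genes. The median ratio there was 0.997 for the members and 0.978 for those genes. Neither background was matched for read count, and counting intervals narrow with more reads, so these shares are not a like comparison. NES, a neural progenitor marker, had 1066 and 1065 CPM in set 2 and 445 and 480.6 CPM in set 1, and the collagen gene COL1A2 255.9 and 249.5 CPM in set 2 and 149 and 143.3 CPM in set 1. The pluripotency marker LIN28A had 378.5 CPM in both libraries of set 2 and 518.4 and 502.8 CPM in set 1. Not every pluripotency marker was lower in set 2. NANOG had 21.3 and 26.5 CPM in set 2 and 35.1 and 27.9 CPM in set 1. SOX2 had 265.5 and 291.8 CPM in set 2 and 256 and 245.4 CPM in set 1, and SALL4 364.6 and 403 CPM in set 2 and 352.4 and 361.4 CPM in set 1. No intervals were made for the markers, so the small differences in NANOG, SOX2 and SALL4 are values only. In the lists of NES and COL1A2, OTX2 had 80 and 85.4 CPM in set 2 and 75.1 and 74.2 CPM in set 1. COL1A1 had 178 and 160.8 CPM in set 2 and 110.7 and 119.8 CPM in set 1. VIM did not follow, with 987.2 and 964.2 CPM in set 2 and 1012 and 1004 CPM in set 1. Nor did THY1, with 394.5 and 369.9 CPM in set 2 and 397.6 and 393.1 CPM in set 1. SOX1 was too low to read a direction, with 0 and 1.32 CPM in set 2 and 3.73 and 3.17 CPM in set 1. The 5 neuroectoderm markers summed to 524.3 to 1152 CPM in H9, 1 of them at 0 in every library, and the 7 fibroblast markers to 1662 to 1816 CPM, 2 of them at 0 in every library. EIF2A was lower in set 2 too, at a ratio of 0.595. The part of these in the members' values was not tested.

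**Figure D5:**
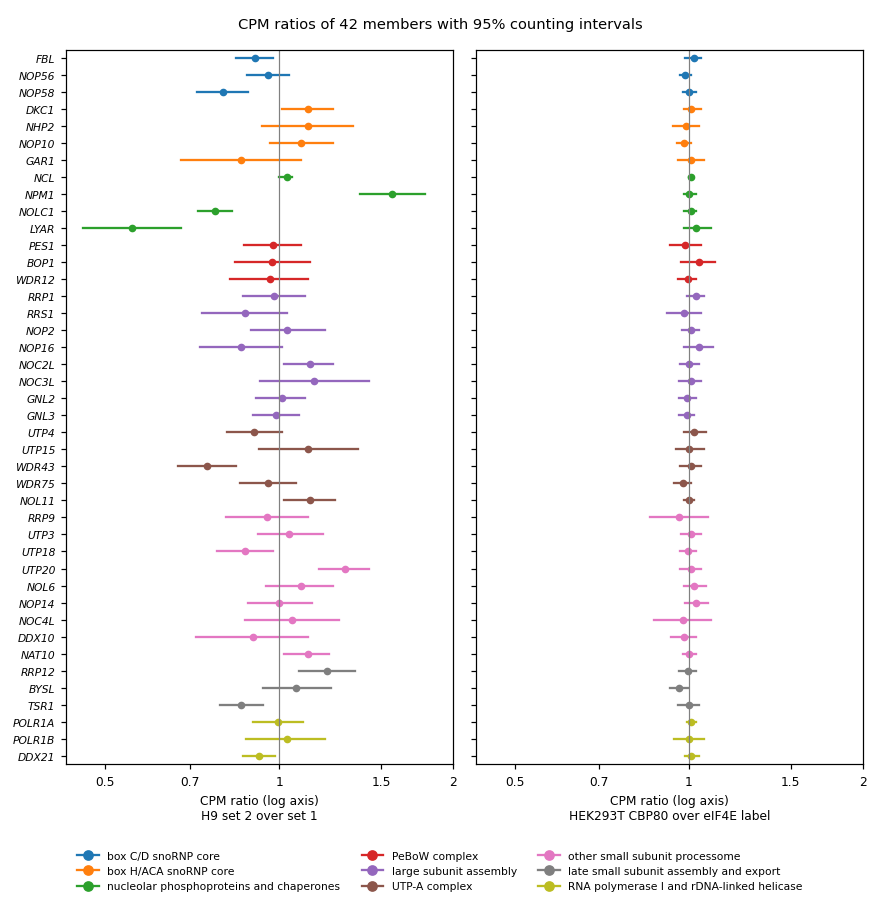
CPM ratios of the 42 members on a log axis with 95% counting intervals, for H9 set 2 over set 1 (left) and HEK293T CBP80 over eIF4E label with 4 pairs summed (right). On the left values run from 0.557 for LYAR to 1.57 for NPM1, and on the right all lie between 0.961 and 1.04.

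Beyond the members, 144 other ribosome biogenesis genes were read as 5 lists. With eIF2A siRNA, 2 of 142 tested were higher and 9 lower, with a median of -0.04. Among all genes 6.15% were higher and 6.29% lower, so the lower count is at the background and the genes named below are values only. The small-subunit list (39 tested) had BUD23 (-0.59), a ribosomal RNA methyltransferase, and TBL3 (-0.49) lower and MPHOSPH10 (0.38) higher. The large-subunit list (56 tested) had 4 lower, among them WDR18 (-0.50) and NSA2 (-0.47). Of the snoRNP assembly list (11 tested), RPAP3 (0.48), a cofactor of the R2TP chaperone complex, was higher and its partner PIH1D1 (-0.39) lower. The exosome and RNase MRP list (23 tested) had POP5 (-0.43) and EXOSC4 (-0.42) lower, and no gene of 13 in the RNA polymerase I list passed. In the H9 shRNA, IP and interaction comparisons no gene of these lists passed.

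Between H9 and HEK293T control libraries, 84 of 141 were lower and 25 higher, with a median of -0.58, against 37.3% lower, 34.5% higher and a median of -0.07 among all genes. Of the RNA polymerase I list 10 of 13 were lower and none higher, with TAF1D (-1.87), POLR1C (-1.64) and POLR1E (-1.65) at the smallest p. The large-subunit list had 30 of 55 lower and 11 higher, among the lowest NIP7 (-2.40) and EBNA1BP2 (-2.11), and the small-subunit list 24 of 39 lower and 7 higher, with UTP25 at -2.40. In the snoRNP assembly list 7 of 11 were lower and 1 higher, with ZNHIT3 at -1.46, and in the exosome and RNase MRP list 13 of 23 were lower and 6 higher, with RPP14, a subunit of RNase P and MRP, at -3.05.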

How the data were processed

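For each library the authors deposited raw read counts, 1 row per RefSeq accession, taken over coding sequences. Libraries were made from TRIzol-extracted RNA with a TruSeq small RNA kit, per the labels' protocols. Reads were handled with cutadapt and STAR 2.5.2b on build hg19, per the submitters' processing notes. Which counter and strand setting were used is not given in the sources used here, so antisense overlaps cannot be told apart. Rows that name no gene held 96.2 to 96.5% of counts in H9 and 87.5 to 89.5% in HEK293T and stayed out of library sizes and tests. RefSeq names (GRCh38.p14) matched 18888 of 19305 accessions, and promoter windows are from RefSeq too.

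CPM is per total of coding reads. Counts were tested with edgeR 4.0.16 in R 4.3.3 (filterByExpr, TMM, robust glmQLFit, glmQLFTest) on the whole table, with DESeq2 1.42.0 as an alternative, after a test on simulated data. The simulated counts had a fixed spread and no set effect, so they do not show how the fits handle differences between sets. Libraries sharing siRNA label and set were summed except in the IP comparison. CBP80 and eIF4E libraries were paired by shared siRNA label and set. Their deviations from the mean of each IP label, which keep siRNA and set differences, correlated at 0.687 to 0.892. Intervals of ratios are 95% exact conditional binomial ones and cover counting error only, since the reads carry no known molecular identifiers, and 3 counts stand for 0.519 to 3.2 CPM. Levels per codon and a coding-length check were planned and not made, as no protein lengths were used here. Members and lists were chosen with earlier results of these data known. The rule for full values per library took called members, at most 6 each way per comparison, and the snoRNP cores and PeBoW, with at most 3 genes per other list. UTP15, NCL, HSF5, BYSL, RRS1, NOLC1 and TSR1, and the members cited for the H9 sets, were added after their values were seen.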

Additional observations from a re-analysis of the deposited data

Results flagged for a closer look

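A signal outside the main measurement was higher in the libraries labelled eIF2A siRNA than in the controls. Of the reads with a single placement, those falling outside coding sequences made up 51 and 51.1% in set 1 and 42.2 and 42.4% in set 2 with eIF2A siRNA, against 39.9 and 40.1% in set 1 and 35.2 and 35.3% in set 2 with control siRNA. The pairs of values are the CBP80- and eIF4E-labelled libraries that share siRNA label and set, which differed by little more than counting noise. In H9 they made up 29 and 31% with eIF2A shRNA, against 28.9 and 31% with control shRNA.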

How the results depend on the processing

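For eIF2A siRNA, where 3 members and 1534 genes passed, leaving out each library gave 0 to 4 members and 75 to 2086 genes. The replicate block, with the set number as block, gave 6 members and 2990 genes, adding UTP15 (0.33), UTP4 (-0.31) and NOL6 (-0.34) to the 3, though the set numbers are not known to pair the libraries (correlation of deviations 0.525). DESeq2 gave 580 genes, the CBP80-labelled libraries in a fit of 8 gave 1 member and 473 genes, and the eIF4E-labelled ones 381 genes. EIF2A itself ranged from -0.88 to 0.06 over left-out libraries, turning positive without set 2 of eIF2A siRNA. For the IP comparison, with 1 gene passing, library sizes alone and a mean count of at least 50 gave 0 genes, no filter 2, DESeq2 2, the replicate block 6 and leaving out libraries 0 to 1. EIF2A in the H9 shRNA comparison ranged from -0.25 to 0.58, and in the H9 against HEK293T comparison from -0.57 to 0.16. In the interaction fit the replicate block gave 2 members (BOP1 at -0.70 and WDR43 at 0.59) and 571 genes, and leaving out libraries 0 to 1 genes. With the block the same 31 members passed between H9 and HEK293T and no member passed in the IP and H9 shRNA comparisons. A block leaves fewer residual degrees of freedom than the main fit in each comparison. H9 against HEK293T member calls ranged from 28 to 31 over left-out libraries. The cause of these differences was not tested. In H9, 3 counts stand for up to 3.2 CPM, below which levels could not be read.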
